A study of Mus musculus with 6 samples.

Results

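Expression was followed along mouse chromosomes 2, 4, 5 and 7, which were cut into 34 windows of 20 Mb among 136 such windows in the whole genome. A gene entered a window when it had GRCm38 coordinates and a mean of at least 10 CPM (reads per 1000000 reads) over the 6 samples, and a window was kept when it held at least 15 such genes. The 34 windows hold 2213 of the 7951 genes that met the same minimum genome-wide, with 18 to 157 genes per window. The shift of a window is the median over its genes of the difference in mean log2(CPM + 1), sgPrkci/Prkcz minus sgC, less the same median over all 7951 genes. These 4 chromosomes were chosen by the same measured values, because the difference varies along them, so the shifts and the gene calls behind them are descriptions of the choice and carry no test of it. None of their own windows fell under the gene minimum. Elsewhere, the window nearest to that minimum from below was the first of chromosome 3, with 14 genes and a shift of 0.11, and among the 34 the smallest was the fourth of chromosome 4, with 18 genes and 0.07. At the expression minimum, Kat14 on chromosome 2 stood just inside with a mean of 10.0 CPM and Slco4a1 on the same chromosome just outside with 9.98 CPM.

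The samples are untreated C57BL/6 material that the labels call MTO without giving the full name, grown with B-27 and EGF. The 3 sgPrkci/Prkcz samples carry guides against both atypical protein kinase C genes, and the 3 sgC samples carry the control guide. Guide delivery, the number of clones and separate cultures are not given in the labels, so every p-value given reflects sample-to-sample spread that could be purely technical. The libraries hold 3′ end tags (QuantSeq), the design text mentions tumors and a higher replicate number than the list of samples, and the study's title concerns loss of these kinases in epithelium.

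Atypical protein kinases C, Prkci and Prkcz, act in the complex that sets apical and basal polarity in epithelial cells. Neighbouring genes on a chromosome are as a rule controlled by their own promoters and enhancers, but they share the copy number of the segment and, in part, its chromatin environment. A median over many neighbours describes what they have in common, while each gene keeps its own response. Neither copy number nor chromatin was measured in these samples.

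With the genes divided into runs of like neighbours, the best placed edges lie between Nudt2 and Rpp25l on chromosome 4 and between Eif3f and Rpl27a on chromosome 7, so the promoters of these 4 genes are shown to let the sequence on either side of an edge be compared. Nudt2 encodes a hydrolase of dinucleoside polyphosphates and Rpp25l a relative of a ribonuclease P subunit. Eif3f encodes a subunit of translation initiation factor eIF3 and Rpl27a a protein of the large ribosomal subunit. The sequences are those of RefSeq on GRCm38.p6, 300 bases each, covering 250 bases before and 50 after the start. They lie at chr4:41464898-41465197 on the plus strand (Nudt2), chr4:41713468-41713767 on the minus strand (Rpp25l), chr7:108934165-108934464 on the plus strand (Eif3f) and chr7:109518945-109519244 on the plus strand (Rpl27a). Capitals mark the TATA box (TATAAA), the CCAAT box (CCAAT) and the GC box (GGGCGG), searched on both strands, and matches of different motifs that share bases were each counted.
Nudt2: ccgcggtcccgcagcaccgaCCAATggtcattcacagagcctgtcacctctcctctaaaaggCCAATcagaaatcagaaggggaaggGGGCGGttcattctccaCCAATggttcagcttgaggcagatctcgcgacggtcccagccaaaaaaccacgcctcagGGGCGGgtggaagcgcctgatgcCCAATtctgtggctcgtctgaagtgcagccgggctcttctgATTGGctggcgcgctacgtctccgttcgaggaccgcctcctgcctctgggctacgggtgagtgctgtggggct
Rpp25l: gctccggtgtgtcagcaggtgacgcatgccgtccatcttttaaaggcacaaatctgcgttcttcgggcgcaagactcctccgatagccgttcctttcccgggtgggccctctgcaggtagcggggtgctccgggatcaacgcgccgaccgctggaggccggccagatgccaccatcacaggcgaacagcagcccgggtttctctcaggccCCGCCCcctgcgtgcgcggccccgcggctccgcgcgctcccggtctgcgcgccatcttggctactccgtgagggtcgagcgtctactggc
Eif3f: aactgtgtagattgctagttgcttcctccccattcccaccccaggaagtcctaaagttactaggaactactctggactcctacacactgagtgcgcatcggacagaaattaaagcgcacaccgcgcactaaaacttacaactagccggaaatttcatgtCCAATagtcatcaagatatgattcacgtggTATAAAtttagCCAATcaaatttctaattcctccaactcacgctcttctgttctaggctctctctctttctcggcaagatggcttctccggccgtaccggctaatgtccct
Rpl27a: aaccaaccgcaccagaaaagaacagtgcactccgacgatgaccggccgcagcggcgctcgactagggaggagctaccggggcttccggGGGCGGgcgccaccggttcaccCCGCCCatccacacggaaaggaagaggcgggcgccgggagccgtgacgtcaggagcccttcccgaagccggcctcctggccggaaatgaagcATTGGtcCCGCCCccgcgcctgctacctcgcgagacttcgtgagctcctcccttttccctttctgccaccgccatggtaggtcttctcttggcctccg

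The Nudt2 promoter held CCAAT and GC boxes, the Rpp25l promoter a single GC box, the Eif3f promoter a TATA box and CCAAT boxes, and the Rpl27a promoter GC boxes and a CCAAT box. Of the 6326 genes of at least 10 CPM that matched the RefSeq promoter table, 6.29% held a TATA box, 38.9% a CCAAT box and 70.1% a GC box. In the raised run of chromosome 4 only 35 of 68 genes matched the promoter table, so its motif shares cannot be compared. In the runs of chromosomes 5, 7 and 2, 61 of 71, 109 of 131 and 30 of 33 matched. Motif shares of the runs are not given here.

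Of the targeted genes, Prkcz, which lies at the far end of chromosome 4, had 3.98, 1.66 and 0.648 CPM in sgPrkci/Prkcz samples, against 6.37, 5.58 and 4.96 CPM in sgC samples. These values rest on 7, 3 and 1 reads in sgPrkci/Prkcz samples and 19, 17 and 14 reads in sgC samples. Every sgPrkci/Prkcz sample was below every sgC sample, and the log2 fold change was -1.24 ± 0.37 (SE, limma, Benjamini-Hochberg adjusted p = 0.00967). Prkci on chromosome 3 had 55.1, 54.2 and 53.8 CPM in sgPrkci/Prkcz samples, against 46.6, 54.5 and 63.8 CPM in sgC samples, and these ranges overlap. A guide can end a protein without lowering its 3′ tags, so the Prkci level does not check the edit, and the Prkcz level rests on few reads.

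Sequencing depth moved with genotype: the sgPrkci/Prkcz libraries held 1543826 to 1808292 reads and the sgC libraries 2821908 to 3048170. Of 8 epithelial markers all were detected, with a summed level of 3748 to 4229 CPM in sgPrkci/Prkcz samples and 3481 to 4016 CPM in sgC samples. The fibroblast markers summed to 7.39 to 16.2 CPM in sgPrkci/Prkcz and 10.2 to 14.1 CPM in sgC (7 of 10 in the table; Lum at 0 in all samples, Col1a1, Col3a1 and Dcn in all sgPrkci/Prkcz samples). The leukocyte markers summed to 13.3 to 19.9 CPM in sgPrkci/Prkcz and 11.8 to 13.1 CPM in sgC (6 of 10 in the table; Fcer1g at 0 in all samples, C1qa and Lyz2 in all sgPrkci/Prkcz samples). The endothelial markers summed to at most 0.648 CPM in sgPrkci/Prkcz and 2.83 to 4.69 CPM in sgC (6 of 9 in the table; Cdh5 and Pecam1 at 0 in all samples, Eng, Esam and Kdr in all sgPrkci/Prkcz samples). The groups also differed in transcripts of the Y chromosome: Ddx3y, an RNA helicase, had 30.1, 44.2 and 27.2 CPM in sgPrkci/Prkcz samples and 0 CPM in all 3 sgC samples. Uty, Kdm5d and Eif2s3y were likewise detected in every sgPrkci/Prkcz sample, and in sgC samples only Eif2s3y had any read, 1 in replicate 3. The X-linked Xist was at 0.67 CPM or below in all 6 samples. The labels do not say whether both groups came from the same line or animal, so effects of the guides and of a different origin of the 2 groups cannot be told apart in any sgPrkci/Prkcz minus sgC value given here. The part of depth in the shifts was not tested. In bulk samples, fewer cells of a type and less RNA per cell cannot be told apart.

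Along the 4 chromosomes most windows stayed close to the genome and a few stretches stood away from it. The 34 shifts ran between -0.39 and 0.51 on the log2 scale with a median of 0.06, and 20 were under 0.1 in size. The high windows were the first pair of chromosome 4 (0.51 and 0.36) and the third and the fourth of chromosome 5 (0.33 and 0.25). The low windows were the fourth and the fifth of chromosome 7 (-0.39 and -0.23) and the sixth of chromosome 2 (-0.31). All sgPrkci/Prkcz samples lay above all sgC samples in 17 of the 34 windows and below them in 4, and the groups overlapped in 13. Over all 136 windows the same happened in 44.1% (above) and 25% (below), beside 50% and 11.8% here.

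**Figure D1:**
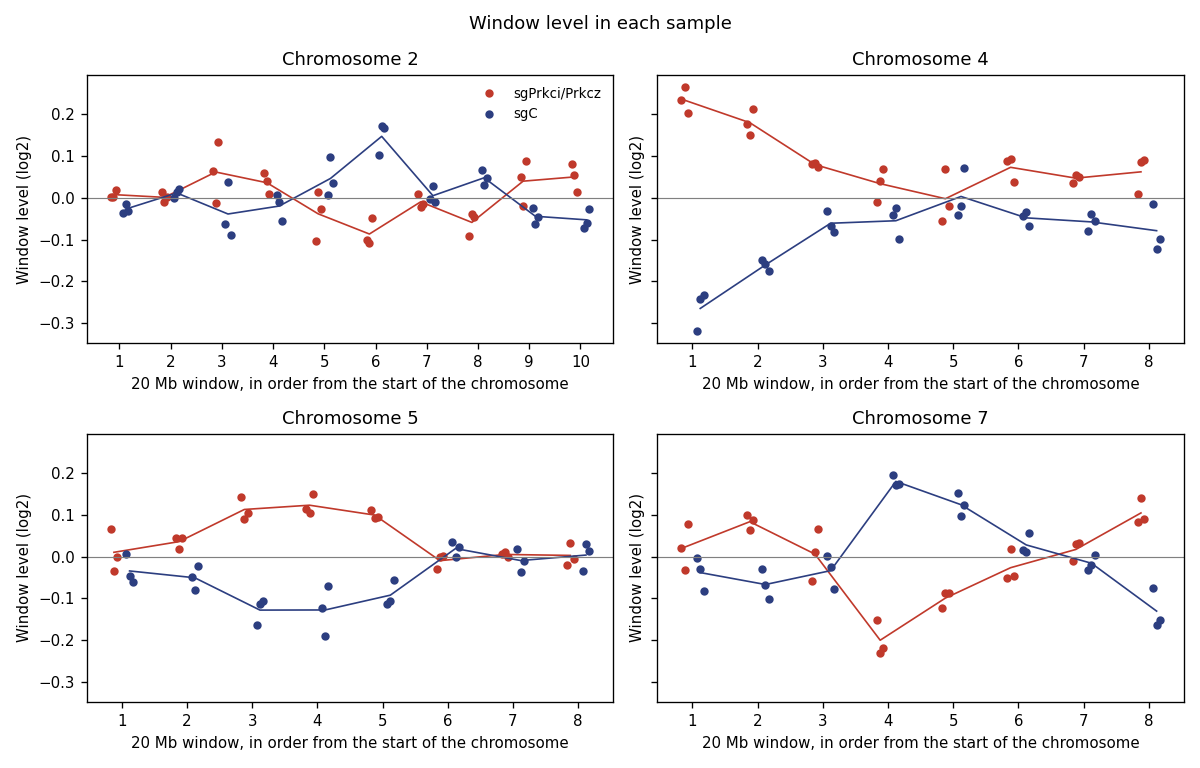
Level of each 20 Mb window (log2) in each sample for chromosomes 2, 4, 5 and 7, with windows in order from the start of the chromosome; points are the 3 sgPrkci/Prkcz and 3 sgC samples and lines join the group means. The groups part most in the first window of chromosome 4, where sgPrkci/Prkcz samples sit at 0.20 to 0.26 and sgC samples at -0.32 to -0.23, and in the fourth window of chromosome 7, where the order is the opposite.

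The level of a window in a sample is the median deviation of its genes from their own means over the 6 samples, less the same median over all 7951 genes in that sample. Replicates differed little on this scale, with a median within-group SD of 0.03 over the 34 windows and a largest of 0.07. The shifts of -0.01 in the fifth window of chromosome 4 and -0.03 in the last of chromosome 5 were within the spread between replicates, and the groups overlapped in both. Other small shifts had no overlap, such as 0.04 in the fourth window of chromosome 2 and 0.05 in the second of chromosome 5.

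Among genes of at least 10 CPM, the start of chromosome 4 was the highest stretch. In its first 20 Mb the window level was 0.23, 0.26 and 0.20 in sgPrkci/Prkcz samples, against -0.32, -0.24 and -0.23 in sgC samples. The groups did not overlap, and the gap between their means was about the size of the shift, 0.51. Of its 28 genes, 26 (92.9%) lay above the genome-wide median difference, which 50% of all genes do. The 17 genes of 1 to 10 CPM there had a shift of 0.14. By limma on log2(CPM + 1) over 12207 genes (Benjamini-Hochberg adjusted p under 0.05), 14 of the 28 rose and 0 fell, where 14.5% of all genes of at least 10 CPM rose and 28.2% fell. With the fold changes re-centred on a median of 0, an alternative added after the data were seen, 17 rose and 0 fell, against 20.7% and 19.2% of all genes. The count of 0 that fell was the same with limma, edgeR and DESeq2 at an unadjusted p under 0.05. Counting samples alone, 18 of the 28 genes had all sgPrkci/Prkcz samples above all sgC samples and 0 had them all below, against 18.2% and 33.5% of all genes.

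The most expressed genes of that window were not of one kind. Sdcbp, which encodes the scaffold protein syntenin, had 561, 545 and 579 CPM in sgPrkci/Prkcz samples, against 240, 258 and 280 CPM in sgC samples. Its log2 fold change was 1.11 ± 0.08 (SE, limma adjusted p = 7.07e-12), and every sgPrkci/Prkcz sample was above every sgC sample. Impad1, which encodes a Golgi nucleotide phosphatase, averaged 643 ± 32.7 CPM in sgPrkci/Prkcz and 346 ± 26.1 CPM in sgC (SD, n = 3 each), with a log2 fold change of 0.89. Rps20, of the small ribosomal subunit, rose by 0.41 (log2), averaging 2168 CPM in sgPrkci/Prkcz and 1635 CPM in sgC. Lyn, a Src family kinase, had 35.8, 37.6 and 24.0 CPM in sgPrkci/Prkcz samples, against 12.7, 21.0 and 20.2 CPM in sgC samples, and rose by 0.82 (log2). Ccne2, which encodes cyclin E2, was the exception among the genes named there, with 24.6 ± 2.19 CPM in sgPrkci/Prkcz and 28.6 ± 3.94 CPM in sgC, and its ranges overlap.

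The second window of chromosome 4 was shifted by 0.36, with levels of 0.18, 0.15 and 0.21 in sgPrkci/Prkcz samples and -0.15, -0.16 and -0.17 in sgC samples. From the third window on, the shifts were -0.01 to 0.13. The fifth window was the lowest, with levels of -0.06, 0.07 and -0.02 in sgPrkci/Prkcz samples and -0.04, -0.02 and 0.07 in sgC samples, which overlap. That window also shows how far single genes depart from their neighbours. Zdhhc21, a protein acyltransferase, rose there (1067 ± 70.4 CPM in sgPrkci/Prkcz, 778 ± 71.9 CPM in sgC), as did Jun, a subunit of the AP-1 transcription factor (30.1 ± 3.79 CPM in sgPrkci/Prkcz, 18.1 ± 4.11 CPM in sgC). In the same window Mtap, an enzyme of methionine salvage (255 ± 45.0 CPM in sgPrkci/Prkcz, 394 ± 39.0 CPM in sgC), and the cell cycle inhibitor gene Cdkn2a (204 ± 29.2 CPM in sgPrkci/Prkcz, 289 ± 30.0 CPM in sgC) fell. The neighbouring Cdkn2b (23.3 CPM in sgPrkci/Prkcz, 24.1 CPM in sgC) and Nfib, a transcription factor (1000.2 CPM in sgPrkci/Prkcz, 970.3 CPM in sgC), were not called.

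Chromosome 7 went the other way in its middle. In the window of 60 to 80 Mb the level was -0.15, -0.23 and -0.22 in sgPrkci/Prkcz samples, against 0.19, 0.17 and 0.17 in sgC samples, a shift of -0.39 over 32 genes. The groups did not overlap. Only 6 of the 32 genes (18.8%) lay above the genome-wide median. By limma 1 rose and 20 fell, where 14.5% of all genes of at least 10 CPM rose and 28.2% fell. With the median change set to 0, 2 rose and 18 fell, against 20.7% and 19.2% of all such genes. Tjp1, which encodes the tight junction protein ZO-1, had 137, 139 and 123 CPM in sgPrkci/Prkcz samples, against 171, 205 and 197 CPM in sgC samples. Its log2 fold change was -0.52 ± 0.10 (SE, limma adjusted p = 0.000145). Selenos, a selenoprotein of the endoplasmic reticulum, averaged 115 ± 8.61 CPM in sgPrkci/Prkcz and 185 ± 28.4 CPM in sgC. Chd2, a chromatin remodeller, averaged 184 ± 4.09 CPM in sgPrkci/Prkcz and 248 ± 21.0 CPM in sgC. Igf1r, which encodes an insulin-like growth factor receptor, averaged 112 ± 9.77 CPM in sgPrkci/Prkcz and 147 ± 8.93 CPM in sgC. All 4 fell, and less the genome-wide median their log2 fold changes were -0.55 to -0.27, around the window's shift of -0.39. With the median of each window removed, Tjp1 stood at 0.0020, Chd2 at 0.089 and Igf1r at 0.12. Selenos, at -0.55 less the genome-wide median, stayed below the window's -0.39. The removed median is that of the same 32 genes, so a value near 0 only places a gene in the middle of its window. Whether the fall of any of the 4 follows from its position was not tested.

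The next window of chromosome 7, 80 to 100 Mb, was shifted by -0.23 over 61 genes, with levels of -0.12, -0.09 and -0.09 in sgPrkci/Prkcz samples and 0.15, 0.10 and 0.12 in sgC samples. On either side, the first 3 windows had shifts of 0.01 to 0.11 and those from 100 to 140 Mb -0.04 and 0.06. The last window, which holds 41 genes, was the highest of the chromosome. Its level was 0.08, 0.14 and 0.09 in sgPrkci/Prkcz samples, against -0.08, -0.16 and -0.15 in sgC samples, a shift of 0.19. Ccnd1, which encodes cyclin D1, lies in that window and went against it, with 474, 577 and 512 CPM in sgPrkci/Prkcz samples and 859, 977 and 1136.5 CPM in sgC samples. Its log2 fold change was -0.92 ± 0.09 (SE, limma adjusted p = 1.02e-08). Ifitm3, an interferon-induced membrane protein (414 ± 35.9 CPM in sgPrkci/Prkcz, 431 ± 20.6 CPM in sgC), Rplp2, a ribosomal stalk protein (219 ± 31.7 CPM in sgPrkci/Prkcz, 192 ± 23.8 CPM in sgC), Hras, a small GTPase (20.3 ± 0.217 CPM in sgPrkci/Prkcz, 26.7 ± 3.06 CPM in sgC), and Cttn, an actin-binding protein (76.7, 89.6 and 59.6 CPM in sgPrkci/Prkcz, 41.2, 51.8 and 72.6 CPM in sgC), were not called, though Rplp2 and Cttn rose with the median change set to 0.

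Chromosome 5 held a raised stretch. The window of 40 to 60 Mb had levels of 0.14, 0.09 and 0.10 in sgPrkci/Prkcz samples, against -0.16, -0.11 and -0.11 in sgC samples, a shift of 0.33 over 25 genes. The groups did not overlap, yet only 16 of the 25 genes (64%) lay above the genome-wide median. By limma 8 rose and 5 fell, where 14.5% of all genes of at least 10 CPM rose and 28.2% fell. With the median change set to 0, 11 rose and 5 fell, against 20.7% and 19.2% of all such genes. Among its 3 most expressed genes the direction was mixed. Bod1l, which protects stalled replication forks, fell (252 ± 14.3 CPM in sgPrkci/Prkcz, 325 ± 19.1 CPM in sgC). Lcorl, a corepressor-like nuclear factor (175 ± 7.54 CPM in sgPrkci/Prkcz, 149 ± 20.8 CPM in sgC), was not called by limma but rose with the median change set to 0. Dhx15, a splicing helicase (134 ± 3.99 CPM in sgPrkci/Prkcz, 152 ± 6.63 CPM in sgC), was not called.

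The 2 windows that follow on chromosome 5 were shifted by 0.25 and 0.18, and the groups did not overlap in either. The sgPrkci/Prkcz samples were at 0.11, 0.10 and 0.15 between 60 and 80 Mb and at 0.11, 0.09 and 0.09 between 80 and 100 Mb. The sgC samples were at -0.12, -0.19 and -0.07 between 60 and 80 Mb and at -0.11, -0.11 and -0.06 between 80 and 100 Mb. The window of 80 to 100 Mb holds a chemokine and growth factor cluster in which single genes changed far more than their surroundings. Cxcl5, a neutrophil-attracting chemokine, had 94.3, 101 and 123 CPM in sgPrkci/Prkcz samples, against 2.35, 1.97 and 1.42 CPM in sgC samples, a log2 fold change of 5.20. Cxcl1, of the same family, had 32.4, 36.5 and 43.4 CPM in sgPrkci/Prkcz samples, against 3.02, 8.20 and 3.54 CPM in sgC samples. Btc, which encodes the EGF receptor ligand betacellulin, and Ccng2, cyclin G2, rose by 0.42 and 0.61 (log2), while Areg, which encodes another such ligand, had 81.8 to 97.8 CPM in sgPrkci/Prkcz and 81.2 to 92.8 CPM in sgC. These genes were singled out from the growth and cancer list after their values were seen.

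The 3 last windows of chromosome 5 were shifted by -0.03 to 0.01 and the groups overlapped in each. The last one, lowest of the chromosome by a margin within the replicate spread, held genes called in both directions: 9 of its 58 genes rose and 14 fell, shares near the 14.5% and 28.2% of all genes of at least 10 CPM. The homologous repair gene Brca2 had 21.6, 24.3 and 20.1 CPM in sgPrkci/Prkcz samples, against 50.3, 47.9 and 52.8 CPM in sgC samples, and fell, as did Rfc3, a subunit of the replication clamp loader (27.3 ± 2.41 CPM in sgPrkci/Prkcz, 51.8 ± 5.67 CPM in sgC). The mismatch repair gene Pms2 (8.08 ± 1.28 CPM in sgPrkci/Prkcz, 17.2 ± 2.80 CPM in sgC) and the intestinal transcription factor gene Cdx2 (12.2 ± 2.16 CPM in sgPrkci/Prkcz, 25.8 ± 1.97 CPM in sgC) fell as well. Arpc1b, a subunit of the actin-nucleating Arp2/3 complex (1164 ± 74.0 CPM in sgPrkci/Prkcz, 919 ± 70.6 CPM in sgC), and Foxk1, a transcription factor (42.5 ± 4.84 CPM in sgPrkci/Prkcz, 29.5 ± 3.53 CPM in sgC), rose, though Foxk1 was no longer called without sgC replicate 2 (limma, adjusted p = 0.0504). Pdap1, a growth factor-associated protein, overlaps Arpc1b at its 3′ side and fell (405 ± 27.3 CPM in sgPrkci/Prkcz, 552 ± 29.6 CPM in sgC), so reads of this pair could be split uncertainly. Actb, which encodes beta-actin, Rac1, Cdk8, a kinase of the Mediator complex, and Hmgb1, a chromatin protein, were not called, though Rac1, a small GTPase, rose with the median change set to 0.

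On chromosome 2 the shift lay in a single window and its extent was not stable. Its lowest window, 100 to 120 Mb with 63 genes, had levels of -0.10, -0.11 and -0.05 in sgPrkci/Prkcz samples, against 0.10, 0.17 and 0.17 in sgC samples, a shift of -0.31 with no overlap. By limma 9 of the 63 genes rose and 29 fell, where 14.5% of all genes of at least 10 CPM rose and 28.2% fell. With the median change set to 0, 9 rose and 21 fell, against 20.7% and 19.2% of all such genes. Its 3 most expressed genes all rose, against the window. Cd44, the hyaluronan receptor, had 1591, 1903.5 and 1702 CPM in sgPrkci/Prkcz samples and 914, 947 and 1157 CPM in sgC samples, a log2 fold change of 0.79 ± 0.08 (SE, limma adjusted p = 3.11e-08). Ehf, an epithelial ETS transcription factor, averaged 734 ± 26.2 CPM in sgPrkci/Prkcz and 553 ± 8.81 CPM in sgC, and Chp1, a calcium-binding cofactor of sodium-proton exchangers, averaged 532 ± 44.0 CPM in sgPrkci/Prkcz and 421 ± 7.77 CPM in sgC. The spindle checkpoint gene Bub1b (28.4 ± 7.01 CPM in sgPrkci/Prkcz, 37.3 ± 7.63 CPM in sgC) was not called.

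The highest window of chromosome 2, 40 to 60 Mb, had a shift of 0.11 over 22 genes but levels of 0.06, -0.01 and 0.13 in sgPrkci/Prkcz samples and -0.06, 0.04 and -0.09 in sgC samples, which overlap. Of its most expressed genes, Rif1, a regulator of replication timing (180 ± 5.21 CPM in sgPrkci/Prkcz, 273 ± 4.86 CPM in sgC), fell, and Gpd2, mitochondrial glycerol-3-phosphate dehydrogenase, was at 247 CPM in both groups. The other 8 windows of chromosome 2 had shifts of -0.11 to 0.10.

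**Figure D2:**
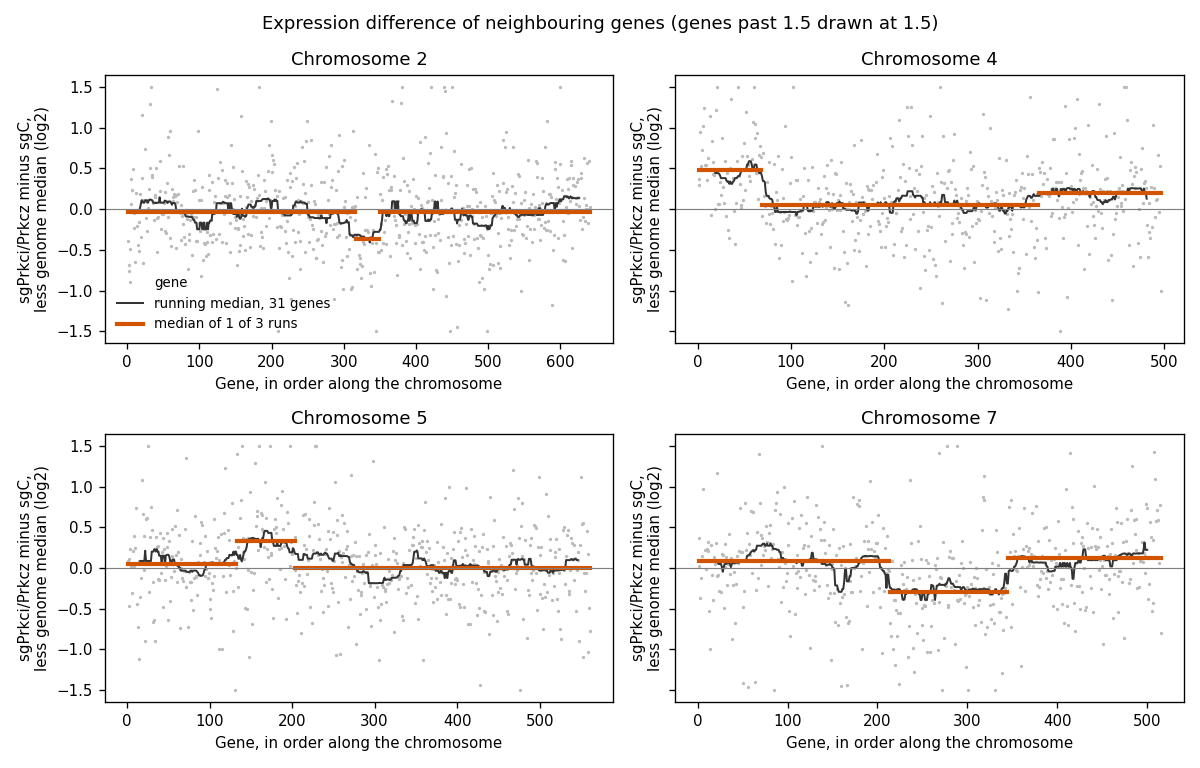
Difference of each gene of at least 10 CPM (log2, sgPrkci/Prkcz minus sgC, less the genome-wide median) against its order along chromosomes 2, 4, 5 and 7; grey points are genes, drawn at 1.5 where they lie beyond it, the dark line is a running median of 31 genes and orange bars are the medians of 3 runs of neighbouring genes. The bars stand at 0.48 over the first 68 genes of chromosome 4 and at -0.29 over 131 genes in the middle of chromosome 7, with wide scatter of single genes around every bar.

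Since 20 Mb windows have arbitrary edges, each chromosome was also divided into 3 runs of neighbouring genes, at least 30 genes each, so that the sum of absolute deviations from the run medians was smallest. This division was added after the data were seen. It lowered that sum to 92.7% of its undivided value on chromosome 7, 94.0% on chromosome 4, 96.7% on chromosome 5 and 98.1% on chromosome 2. Most of the scatter between genes therefore lay within runs on all 4 chromosomes. A division into 2 runs, which allows a single edge, placed it between Nudt2 and Rpp25l on chromosome 4 (0.48 before and 0.09 after). On chromosome 2 it lay between B4galt5, a galactosyltransferase gene, and Rnf114, a ubiquitin ligase gene (-0.06 and 0.13), on chromosome 5 between the volume-regulated channel genes Lrrc8b and Lrrc8c (0.15 and -0.02), and on chromosome 7 between Lsm14a, an RNA-granule protein gene, and Pepd, which encodes a prolidase (0.12 and -0.04). With a sample left out, the single edge of chromosome 4 stayed at 41.48 Mb. The first of the 2 runs then ended at 164.07 to 167.35 Mb on chromosome 2 and at 91.96 to 105.49 Mb on chromosome 5. On chromosome 7 its end ranged over 34.39 to 108.94 Mb and its shift over -0.10 to 0.13, so that edge was not stable. Of the genes beside the single edges of chromosomes 2, 5 and 7 with all samples, Rnf114 rose (49.7 ± 2.80 CPM in sgPrkci/Prkcz, 38.2 ± 0.688 CPM in sgC), B4galt5 (25.8 ± 5.60 CPM in sgPrkci/Prkcz, 35.2 ± 4.65 CPM in sgC) and Lrrc8c (6.68 ± 0.535 CPM in sgPrkci/Prkcz, 15.1 ± 1.42 CPM in sgC) fell, and Lrrc8b, Lsm14a and Pepd were not called. Taken relative to the genome median, B4galt5 was no longer called (limma, adjusted p = 0.163). Its call was also lost without sgPrkci/Prkcz replicate 1 or 3 or sgC replicate 1 or 3 (adjusted p = 0.0912 to 0.173), and 11 of 16 other settings lost it in all. The call of Rnf114 was lost in 6 of 16, including without sgPrkci/Prkcz replicate 1 or any 1 sgC sample (adjusted p = 0.0589 to 0.116).

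On chromosome 4 the first run reached over 68 genes to Nudt2, ending at 41.48 Mb, with a shift of 0.48. Its level was 0.24, 0.25 and 0.25 in sgPrkci/Prkcz samples, against -0.28, -0.23 and -0.27 in sgC samples. Of the 68 genes 61 lay above the genome-wide median, and the quartiles of their differences were 0.26 and 0.79. By limma 36 rose and 2 fell, against 14.5% and 28.2% of all genes of at least 10 CPM. With each sample left out in turn, the run ended at Nudt2 in 5 of 6 cases, and without sgC replicate 2 it ended slightly farther on, at 41.72 Mb. Nudt2 itself, inside the edge, had 23.9, 29.9 and 25.9 CPM in sgPrkci/Prkcz samples, against 17.8, 19 and 17.7 CPM in sgC samples. Its call as higher (limma, adjusted p = 0.0247) was lost without sgPrkci/Prkcz replicate 2 or any 1 sgC sample (0.0524 to 0.0971). Rpp25l, beyond it, had 14.8, 13.8 and 16.2 CPM in sgPrkci/Prkcz samples, against 19.4, 21.0 and 12.8 CPM in sgC samples, which overlap. The rest of the chromosome up to 134.52 Mb was at 0.05, and the last 131 genes were at 0.20. Prkcz lies within the span of those genes but is below the expression minimum and is not one of them.

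On chromosome 7 the lowered run held 131 genes between Mtmr10, starting at 64.29 Mb, and Eif3f, ending at 108.94 Mb, with a shift of -0.29. Its level was -0.14, -0.16 and -0.14 in sgPrkci/Prkcz samples, against 0.17, 0.11 and 0.17 in sgC samples. Of its genes 33 (25.2%) lay above the genome-wide median. By limma 8 rose and 75 fell, against 14.5% and 28.2% of all genes of at least 10 CPM. The flanking runs stood at 0.09 and 0.12. The far edge was at Eif3f in all 6 cases with a sample left out, and the near edge, at the start, was at Mtmr10 in 5 of 6, moving to Klf13 at 63.89 Mb without sgC replicate 1. At the near edge Klf13, a transcription factor, had 61.9, 65.8 and 63.5 CPM in sgPrkci/Prkcz samples and 64.4, 74.8 and 75.8 CPM in sgC samples. Mtmr10, a myotubularin-related protein, had 30.7, 28.2 and 25.3 CPM in sgPrkci/Prkcz samples, against 47.3, 53.1 and 48.5 CPM in sgC samples, which do not overlap. At the far edge Eif3f had 148, 152 and 128 CPM in sgPrkci/Prkcz samples, against 181, 163 and 186 CPM in sgC samples, and Rpl27a, the next gene, had 164, 192 and 177 CPM in sgPrkci/Prkcz samples and 178, 174 and 178 CPM in sgC samples. Klf13, Mtmr10, Eif3f and Rpl27a were chosen after their values were seen.

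On chromosome 5 the raised run held 71 genes between Hs3st1 at 39.61 Mb and Clock at 76.30 Mb, with a shift of 0.33 and flanks at 0.05 and -0.00. Its level was 0.15, 0.13 and 0.18 in sgPrkci/Prkcz samples, against -0.16, -0.20 and -0.09 in sgC samples. Of the 71 genes 54 lay above the genome-wide median. By limma 26 rose and 11 fell, against 14.5% and 28.2% of all genes of at least 10 CPM. Its start was less certain than the edges on chromosomes 4 and 7. It stayed at Hs3st1, a heparan sulfate sulfotransferase gene, in only 2 of 6 cases with a sample left out, and lay as far on as 53.11 Mb in the others. The end stayed at Clock, the circadian transcription factor gene, in 5 of 6.

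On chromosome 2 no stable run was found. With all samples, 33 genes between Emc7 at 112.45 Mb and Ndufaf1 at 119.66 Mb formed a run at -0.37, near the smallest size allowed. Its level was -0.16, -0.17 and -0.18 in sgPrkci/Prkcz samples, against 0.20, 0.21 and 0.19 in sgC samples. Without sgPrkci/Prkcz replicate 2 or without sgC replicate 1 the run instead covered 314 genes between 80.62 and 164.07 Mb at -0.13 and -0.14. Without sgC replicate 3 it covered 336 genes up to 167.35 Mb at -0.12. Both edges were kept in 1 of 6 cases. The lowered stretch of chromosome 2 is therefore described by its window.

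**Figure D3:**
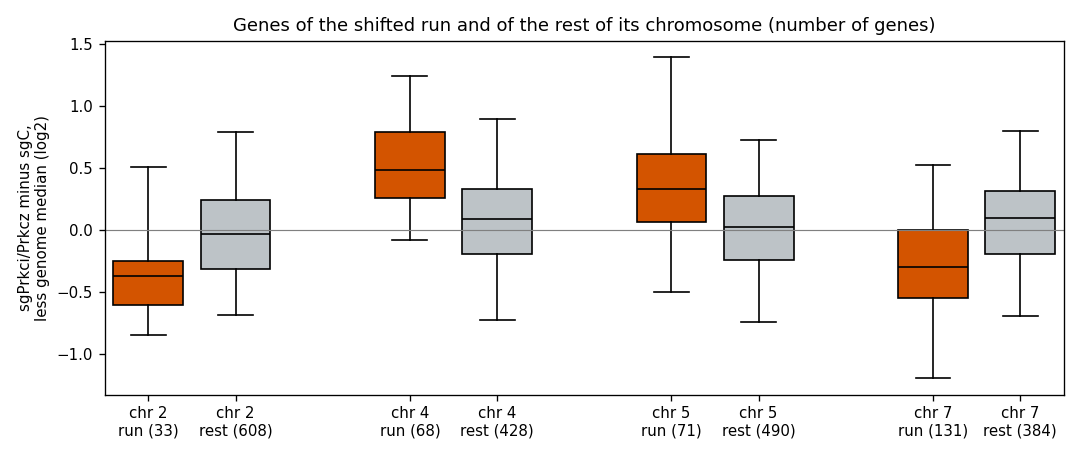
Differences of the genes (log2, sgPrkci/Prkcz minus sgC, less the genome-wide median) inside the shifted run of each chromosome and in the rest of that chromosome, with the number of genes; boxes span the quartiles with the median as a line, and whiskers run to the 5th and the 95th percentile. The run of chromosome 4 has its lower quartile at 0.26 and that of chromosome 2 its upper quartile at -0.25, while the other 2 run boxes reach to about 0.

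Seen against the other chromosomes, the range of shifts within chromosomes 4 and 7 was wide and that within chromosomes 2 and 5 was not set apart. The difference between the highest and the lowest window was 0.58 on chromosome 7 and 0.52 on chromosome 4, the first and the second of 20 chromosomes. It was 0.42 on chromosome 2 and 0.35 on chromosome 5, while chromosome 1 had 0.43 and the X chromosome 0.35. The whole-chromosome shifts were -0.04, 0.12, 0.05 and 0.02 for chromosomes 2, 4, 5 and 7, smaller in size than those of chromosome 1 (0.29), 8 (-0.25), 11 (-0.30) and 15 (-0.25), on each of which all windows had the same sign. The SD of the 34 shifts was 0.17 and that of the 102 windows elsewhere 0.18.

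**Figure D4:**
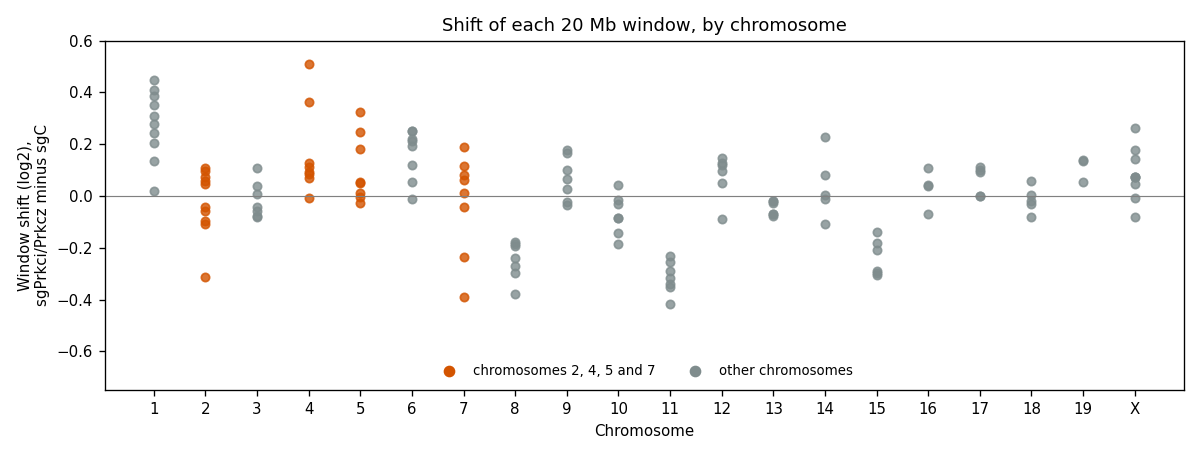
Shift of every 20 Mb window (log2, sgPrkci/Prkcz minus sgC) by chromosome, with chromosomes 2, 4, 5 and 7 in orange and the others in grey; each point is a window. The points of chromosome 4 reach 0.51 and those of chromosome 7 reach -0.39 away from a group near 0, whereas on chromosomes 8, 11 and 15 all windows lie below 0.

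Genes with a mean of 1 to 10 CPM were not used to form the windows and give a second view of the same libraries. Their shift had the sign of the window's own shift in 22 of the 34 windows, against 70 of the 102 windows elsewhere. Across the 34 windows the Spearman correlation was 0.46, a description only, since windows share libraries and depth. On chromosome 7 the low genes followed the run, with a shift of -0.20 over 92 genes, or -0.27 by edgeR on recovered reads. On chromosome 5 they did so too, with 0.31 over 58 genes, and on chromosome 2 the shift was -0.25 over 12 genes. On chromosome 4 they did not: the 29 low genes of the raised run had a shift of 0.08, or 0.01 by edgeR, against 0.48 for the 68 higher genes. Log2(CPM + 1) understates change in low genes, and edgeR's fold changes are not on that scale.

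**Figure D5:**
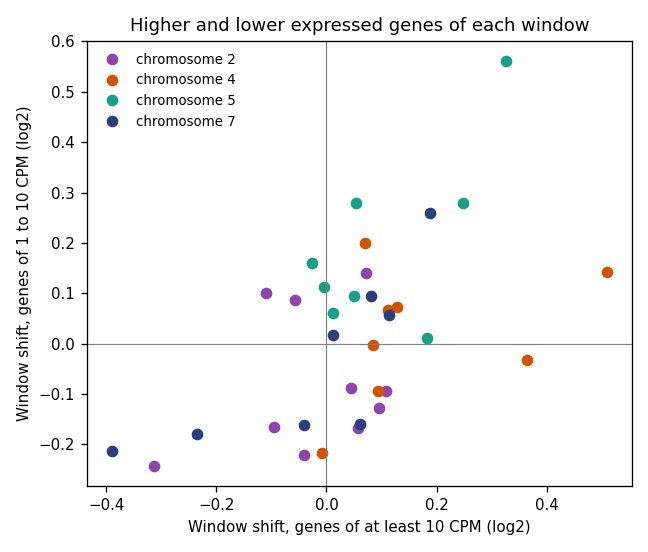
Shift of the genes of 1 to 10 CPM (y axis, log2) against that of the genes of at least 10 CPM (x axis, log2) in each of the 34 windows, coloured by chromosome. The chromosome 5 window at 0.33 has low genes at 0.56, while the first pair of chromosome 4 windows, at 0.51 and 0.36, have low genes at 0.14 and -0.03.

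Gene properties that the rule did not use varied along the chromosomes as well. The GC content of the last 300 bases of transcripts had a median of 35.2% in the chromosome 4 run and 38% in the chromosome 5 run. It was 41.3% in the chromosome 7 run and 41.0% in the chromosome 2 run, beside 41.3% over all 7951 genes. Over the 34 windows the Spearman correlation of shift with this GC content was -0.12, but within chromosomes it was -0.71 over the 8 windows of chromosome 5 and 0.81 over the 8 of chromosome 7, in opposite directions. The part of base composition in the shifts was not tested. Median expression per window ran between 27.9 and 76.2 CPM, and its correlation with the shift was 0.10 over the 34 windows. Within chromosomes 2, 4, 5 and 7 it was 0.41, 0.26, 0.95 and -0.19. For the median transcript length of a window the correlation was -0.06 over the 34 windows. Within the same chromosomes it was 0.32, -0.10, 0.29 and -0.93. The part of expression level and transcript length in the shifts was not tested.

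Housekeeping genes, taken by symbol as ribosomal, proteasomal, respiratory chain and translation initiation genes, fell in the chromosome 7 run. Genome-wide 342 were tested, of which 25 rose and 128 fell. In the lowered run 8 were tested and all 8 fell by limma, 4 of them also with the median change set to 0. Beside this, 75 of the 131 genes of at least 10 CPM in the run fell, as did 23.8% of all 12207 genes tested. Rps3, of the small ribosomal subunit, had 627, 622 and 605 CPM in sgPrkci/Prkcz samples, against 897, 827 and 850 CPM in sgC samples. Others were Mrpl46, Mrps11, Mrpl48 and Mrpl17 of the mitochondrial ribosome, Ndufc2 of respiratory complex I, and Eif3f. Nearer the start of chromosome 7, before the run, 15 were tested, 4 rose and 1 fell, with Rps16 averaging 107 CPM in sgPrkci/Prkcz and 76.3 CPM in sgC. Rps3 and Rps16 were singled out from the list after their values were seen. After the run, 11 were tested, 0 rose and 1 fell by limma, with 0 higher at an unadjusted p under 0.05, while edgeR and DESeq2 each called 1 higher. In the chromosome 4 run 4 were tested: Rps20 rose, the complex I assembly factors Ndufaf6 and Ndufaf4 fell, and Ndufb6 was not called. Ribosomal genes have many processed copies, and no source used here says how the authors' counting treated reads shared with them.

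The growth and cancer list was drawn up largely from these 4 chromosomes. Over them 100 were tested, of which 15 rose and 41 fell, beside 11.4% and 23.8% of all 12207 genes tested. In the chromosome 7 run, where 75 of 131 genes of at least 10 CPM fell, 4 of the list's 6 fell: Igf1r, the spindle midzone gene Prc1, the helicase gene Blm and Fanci of the Fanconi anaemia pathway. Prc1 had 131, 119 and 125 CPM in sgPrkci/Prkcz samples, against 251, 266 and 244 CPM in sgC samples, and Blm had 19.3, 16.6 and 20.1 CPM in sgPrkci/Prkcz samples, against 40.2, 39.0 and 50.3 CPM in sgC samples. Less the genome-wide median, their log2 fold changes were -0.89 and -1.04, lower than the run shift of -0.29. Prc1 and Blm were singled out from the list after their values were seen. Idh2, an isocitrate dehydrogenase, and Ilk, an integrin-linked kinase, were not called. Outside the shifted runs, Brca2 and Rfc3 fell at the end of chromosome 5, where the window shift was -0.03.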

How the data were processed

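Gene expression was measured by 3′ tag RNA sequencing in 3 sgPrkci/Prkcz and 3 sgC samples. The authors deposited 1 table of CPM values for 20756 genes; per the submitters' processing notes, coordinates follow GRCm38. Aligner, counter, strandedness and any use of molecular identifiers: not given in the sources used here. Columns were matched to samples by title, and 0 other value columns were present. Coordinates came from GENCODE for 20675 genes. All deposited CPM values were whole multiples of 1 read (100%, relative tolerance 1e-06), so reads were recovered and used for edgeR and DESeq2 as alternatives; edgeR's quasi-likelihood test called 3958 genes.

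Windows and runs were computed in Python 3.11.15 with pandas 2.3.3. Genes were tested with limma 3.58.1 (R 4.3.3; trend, robust) on log2(CPM + 1) for genes of at least 1 CPM in at least 3 samples, with a Benjamini-Hochberg adjusted p under 0.05; edgeR was 4.0.16 and DESeq2 1.42.0. The scripts were tested on simulated data. The windows, the gene lists and the tests were chosen with earlier results of these data known. The named genes are the 3 most expressed genes with an established symbol in the highest and the lowest window of each chromosome. The rule also takes the growth and cancer list's members of at least 10 CPM there. It further takes the genes beside the best single split of each chromosome. Other genes in the text are targeted genes, markers, list members, or genes at an edge or at the expression minimum. Rps3, Rps16, Prc1, Blm and those so described were chosen after their values were seen. A few genes that the rule names are not reported here. Alternatives were other pseudocounts, CPM minimums, windows, centring, quantile normalization, tools and each sample left out. Precision is limited by depth, 1543826 to 3048170 reads per sample.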

Additional observations from a re-analysis of the deposited data

How the results depend on the processing

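No paired analysis was possible because the sample labels of the 2 groups share no replicate number. The difference between the highest and the lowest window of chromosomes 2, 4, 5 and 7 was 0.42, 0.52, 0.35 and 0.58 as reported (log2). Its size depended on the settings. In most settings it was taken between the windows that were highest and lowest as reported, which were chosen by the same values. It then stayed above 0, which that choice on the same samples made likely, so this is no check of the difference. With 10 Mb windows, windows moved by 10 Mb and runs, it was the highest less the lowest value, which cannot be below 0. With a pseudocount of 5 it was 0.34, 0.45, 0.31 and 0.51 for these chromosomes in that order, without a filter on low values 0.072, 0.13, 0.11 and 0.33, with 10 Mb windows 0.51, 0.40, 0.40 and 0.70, with windows moved by 10 Mb 0.32, 0.38, 0.41 and 0.43, and with 2 runs of neighbouring genes 0.19, 0.40, 0.17 and 0.16. With 3 runs it was 0.34, 0.44 and 0.42 on chromosomes 2, 4 and 7. Restricting the genes to 30 CPM or more gave 0.27, 0.57 and 0.49 on chromosomes 2, 4 and 7, and a minimum of 1 CPM gave 0.47 on chromosome 4. With means in place of medians over genes it was 0.53, 0.67 and 0.70 on chromosomes 2, 4 and 7. Under quantile normalization it was 0.30, 0.46 and 0.26 on chromosomes 2, 4 and 5, and without genes changed by 1 or more 0.35, 0.29 and 0.46 on chromosomes 4, 5 and 7. With 1 sample left out it ranged over 0.32 to 0.46 on chromosome 2, 0.40 to 0.52 on chromosome 4, 0.19 to 0.35 on chromosome 5 and 0.55 to 0.65 on chromosome 7. The value of 0.19 on chromosome 5 was without sgC replicate 1. A single split cannot hold a stretch with flanks on either side, such as the 3 runs gave on chromosomes 2, 5 and 7. The causes of the changes between settings were not tested.

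The count of genes called by limma was 4300 and fell to 2726 with DESeq2 (1546 higher, 1180 lower); the median change set to 0 gave 1924 higher and 2001 lower in place of 1391 and 2909, quantile normalization 1869 and 1936, and edgeR 2005 and 1953. Of the 50 named genes 31 were called. For 18 of these, none of the 16 other settings lost the call while keeping the direction. Those 18 include Chd2 and Tjp1, which did not keep their direction in every setting. With window medians removed, the sign turned for Chd2 (0.089), Tjp1 (0.0020), Igf1r (0.12) and, among genes not called, Bub1b (0.052), Gpd2 (0.015) and Cdkn2b (0.090). The other turns of sign were of genes not called. Gpd2 stood at 0.15 with DESeq2, 0.14 with edgeR, 0.12 with the median change set to 0, 0.026 under quantile normalization, and -0.054 to 0.074 with a sample left out. Cdkn2b stood at 0.10, 0.092, 0.082 and 0.14 under those 4 settings, Pepd at 0.076, 0.069, 0.034 and 0.12, and Ifitm3 at 0.087, 0.077 and 0.064 under the first 3 of them. Nfib stood at -0.013 and Rpp25l at 0.0071 under quantile normalization. With a sample left out the range was -0.25 to 0.012 for Pepd, -0.015 to 0.12 for Nfib, -0.027 to 0.13 for Lsm14a and -0.042 to 0.12 for Lrrc8b. Depth limits genes near 1 CPM, where 1 read was worth 0.328 to 0.648 CPM.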
